A study of Mus musculus with 9 samples.

Results

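Replication-dependent histone genes encode the linker histone H1 and the core histones H2A, H2B, H3 and H4 that package newly copied DNA. They were taken as every gene of the count tables whose symbol begins with Hist1h, Hist2h, Hist3h or Hist4h and which had at least 10 reads summed over the 9 libraries. Of 68 genes with such a symbol 60 met this rule, out of 23337 genes in the tables. They comprised 6 H1, 14 H2A, 16 H2B, 12 H3 and 12 H4 genes. On GRCm38 (mm10), 47 of them lie on chromosome 13, 9 on chromosome 3, 3 on chromosome 11 and 1, Hist4h4, on chromosome 6, and 1, Hist3h2bb-ps, is annotated as a processed pseudogene. The rule used the name and the total read number only, and no difference between groups.

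CD11b+ cells, the myeloid cells of bone marrow, were isolated from the femurs and tibias of 9 male C57BL/6 mice, which were a few weeks old when obtained, by positive selection on magnetic beads after lysis of red blood cells. All mice had tail vein injections on days 1, 3 and 5: 3 mice received PBS, and 6 received extracellular vesicles of enzalutamide-resistant CWR-R1 prostate cancer cells, named EnzR EVs, with 10 µg protein per dose. Of these 6, 3 also received HDL NPs, nanoparticles with a gold core that mimic high-density lipoprotein, on days 0, 2 and 4 (1 µM by the labels, while the methods give a higher concentration). No group received HDL NPs alone. A single total RNA library depleted of ribosomal RNA was sequenced per mouse.

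Replication-dependent histone mRNAs are the only known animal mRNAs that end without a poly(A) tail. Their 3′ end is a short stem-loop bound by SLBP, and cleavage just behind it needs the U7 small nuclear ribonucleoprotein, which contains LSM10 and LSM11. The genes lie in clusters, are transcribed in S phase with the help of NPAT, and their mRNAs are degraded when DNA synthesis stops. Bone marrow holds many dividing myeloid precursors beside mature granulocytes that have left the cell cycle, and a library of total RNA keeps mRNAs without poly(A) tails. In such bulk samples, fewer dividing cells and less histone mRNA per cell cannot be told apart.

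The stem-loop is shown first because it is what sets these mRNAs apart in a total RNA library. It was searched in the longest coding GENCODE M21 transcript of each member as 16 bases with a 6-base stem that begins with GG and a 4-base loop that begins with TT. It was found in 39 of 60 members (4 of 6 H1, 8 of 14 H2A, 9 of 16 H2B, 8 of 12 H3 and 10 of 12 H4 genes) and in 126 of 21877 protein-coding genes (0.576%). Several of the other members have transcripts annotated only to the end of the coding sequence, so no match says nothing about their 3′ end. The 39 sequences took 6 forms. The most frequent, of 22 members, is that of Hist1h1c (chr13:23739512-23739527, plus strand). H4 genes had forms of their own, of 6 members including Hist1h4d (chr13:23581950-23581965, plus strand), of 2 members, Hist1h4b (chr13:23757366-23757381, plus strand) and Hist1h4j, and of 2 members, Hist2h4 (chr3:96262939-96262954, minus strand) and Hist1h4i. A form of 6 members is that of Hist1h3f (chr13:23544932-23544947, plus strand), and the last is that of Hist2h2ac (chr3:96220418-96220433, minus strand). Each is given below with 5 bases on either side, and capitals mark the stem:
Hist1h1c: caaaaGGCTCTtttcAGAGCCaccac
Hist1h4d: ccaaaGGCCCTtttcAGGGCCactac
Hist1h3f: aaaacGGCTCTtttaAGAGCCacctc
Hist2h4: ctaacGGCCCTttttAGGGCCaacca
Hist1h4b: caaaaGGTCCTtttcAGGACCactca
Hist2h2ac: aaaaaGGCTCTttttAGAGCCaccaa

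In 9 members the annotated transcript runs more than 1000 bases past the stem-loop, farthest in Hist1h1d (4884 bases). The others of these are Hist4h4 (2445 bases), Hist1h2ac (2010), Hist1h2be (1861), Hist3h2a (1643), Hist2h4 (1257), Hist1h2bh (1214), Hist2h3c1 (1167) and Hist1h1e (1153). In others, such as Hist1h2ab (11 bases) and Hist1h2ag (23 bases), it stops close behind.

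The coding sequences are so alike that some reads cannot be given to 1 gene. A read of these libraries is 75 bases long. Of all 75-base windows of a member's transcript, a median of 64.2% were found in no GENCODE gene at another place of the genome, against 100.0% for the 35 S phase genes used for comparison below. The median was 99.3% for H1, 76.5% for H4, 68.1% for H2B, 47.7% for H3 and 39.6% for H2A genes, and 21 of 60 members were under 50%. To show this, bases 101 to 175 of 4 H2A coding sequences follow, from Hist1h2ah (chr13:22035378-22035452, minus strand), Hist1h2ai (chr13:21716522-21716596, plus strand), Hist1h2an (chr13:21787044-21787118, minus strand) and Hist1h2ak (chr13:21753653-21753727, minus strand), counted from 1 at the start codon. Capitals mark bases not shared by at least 3 of the 4:
Hist1h2ah: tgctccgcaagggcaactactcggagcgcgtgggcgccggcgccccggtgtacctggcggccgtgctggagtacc
Hist1h2ai: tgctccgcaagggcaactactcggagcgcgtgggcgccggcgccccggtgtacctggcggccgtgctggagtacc
Hist1h2an: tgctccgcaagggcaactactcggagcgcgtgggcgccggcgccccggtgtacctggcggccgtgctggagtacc
Hist1h2ak: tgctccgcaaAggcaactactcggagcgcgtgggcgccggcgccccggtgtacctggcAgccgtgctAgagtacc

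The first 3 are identical over this read length, and Hist1h2ak has 3 bases of its own. H4 genes, which all encode nearly the same protein, differ more. The same bases of Hist1h4b (chr13:23757121-23757195, plus strand), Hist1h4d (chr13:23581702-23581776, plus strand), Hist1h4f (chr13:23551469-23551543, minus strand) and Hist4h4 (chr6:136804205-136804279, minus strand) are given with capitals for bases not shared by at least 3 of the 4:
Hist1h4b: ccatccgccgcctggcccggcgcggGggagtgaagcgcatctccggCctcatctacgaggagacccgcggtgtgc
Hist1h4d: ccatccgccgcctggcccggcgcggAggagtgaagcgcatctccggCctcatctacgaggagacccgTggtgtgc
Hist1h4f: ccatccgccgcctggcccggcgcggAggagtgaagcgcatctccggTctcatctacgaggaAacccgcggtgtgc
Hist4h4: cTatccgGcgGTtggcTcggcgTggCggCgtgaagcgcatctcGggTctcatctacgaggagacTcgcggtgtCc

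No 2 of these 4 are the same, and Hist4h4 stands apart with 12 capitals. Windows of Hist1h4b were unique in 51.7%, of Hist1h4f in 75.4%, of Hist1h4d in 96.3% and of Hist4h4 in 94.8%. A further limit is that 7 members overlap another annotated gene on the same strand and 17 one on the opposite strand, and whether counting used the strand is not given in the sources used here. Levels of members with low shares, such as Hist1h3h (6.53%) and Hist1h2ah (9.97%), are uncertain as well, since how reads with several places were counted is not given in the sources used here. Of the 8 genes outside the rule, 6 had 0 reads in all libraries (Hist1h2ao, Hist1h2ap, Hist1h2bq, Hist1h2br, Hist1h4m and Hist2h2aa2), Hist1h2aa had 3 and Hist1h2ba had 1. Just inside it were Hist2h2aa1 with 26, Hist1h1t with 51 and Hist1h4n with 57 reads. All members but Hist2h2aa1 passed the filter on low counts, which leaves 59 members and 12553 genes tested.

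Total counts were 6006087, 16381679 and 15972757 in PBS replicates 1, 2 and 3, 2575776, 18110561 and 8554487 in the EnzR EV replicates and 15602936, 16611934 and 13231038 in the EnzR EV + HDL NP replicates. Levels are given as CPM, counts scaled to the size of the library corrected with TMM factors, and the floor of 3 counts lies between 0.160 CPM (EnzR EVs replicate 2) and 1.65 CPM (EnzR EVs replicate 1), for counting error only. The share of reads on Rn45s, the ribosomal RNA precursor, was 42.7% for EnzR EVs replicate 1, 20.3% for PBS replicate 1, 14.2% for EnzR EVs replicate 3 and 0.657% to 2.87% for the other 6, of which EnzR EVs + HDL NPs replicate 3 had the most. Since these libraries stand apart, values without the first 3 are given beside the histone results that rest on them. Markers of the selected cells were present in every library (10024 to 16861 CPM summed over 6 myeloid genes, Itgam among them). Against this stood 29.9 to 87.5 CPM for 12 erythroid genes, 8.45 to 29.6 CPM for 9 B lineage genes, 24.8 to 101 CPM for 6 platelet genes and 31.3 to 80.1 CPM for 7 T and NK cell genes. In the erythroid list 4 globin genes were at 0. How reads with several places were counted is not given, so the erythroid sum may miss globin RNA.

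Histone mRNA was abundant in all mice. The 60 members together took 0.730, 0.941 and 0.969% of the counts of the PBS libraries, 0.474, 1.17 and 0.815% of the EnzR EV libraries and 0.998, 0.935 and 0.630% of the EnzR EV + HDL NP libraries. The highest and the lowest of these 9 shares were both in the EnzR EV group, whose range held the other groups entirely. The mean was 0.880 ± 0.131% (SD, n = 3) with PBS, 0.820 ± 0.348% with EnzR EVs and 0.855 ± 0.197% with EnzR EVs + HDL NPs, and these means differed by less than the spread between mice. Without the counts on Rn45s the shares were 0.916, 0.956 and 0.981%, 0.826, 1.18 and 0.950% and 1.01, 0.941 and 0.649%, with EnzR EVs + HDL NPs replicate 3 now lowest. The 10 members with the highest mean CPM held 60.9% of all histone counts.

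**Figure D1:**
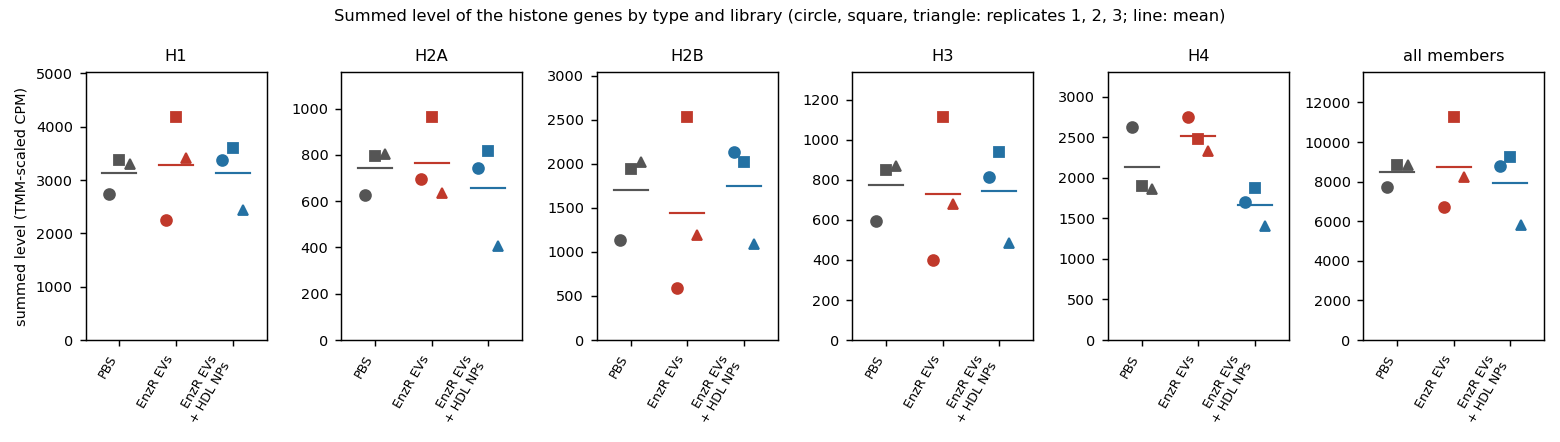
Summed level of the 6 H1, 14 H2A, 16 H2B, 12 H3, 12 H4 and all 60 histone genes (TMM-scaled CPM, vertical axes from 0) in each of 9 libraries, with a line at the mean of 3 mice. For H2B, PBS replicate 1, EnzR EVs replicates 1 and 3 and EnzR EVs + HDL NPs replicate 3 lie below the other 5 libraries. For H4 all 3 EnzR EV libraries lie above the EnzR EV + HDL NP libraries, while 17.6% of all genes tested do not overlap between these groups.

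The plot of summed levels by type shows that the types did not move together. H2B genes, partners of H2A in the nucleosome, summed to 1135, 1941 and 2022 CPM with PBS, 589.9, 2536 and 1188 CPM with EnzR EVs and 2131, 2025 and 1089.8 CPM with EnzR EVs + HDL NPs. In each group, the library with the most Rn45s was the lowest. H4 genes summed to 2630.3, 1903 and 1860.3 CPM, 2754, 2476 and 2332 CPM and 1700.1, 1877 and 1412 CPM in the same order. Here PBS replicate 1 and EnzR EVs replicate 1 were the highest of their groups, and the EnzR EV and EnzR EV + HDL NP groups did not overlap. The same held for 17.6% of all genes tested singly, in either direction. H1 genes summed to 3135 ± 352, 3284 ± 973 and 3137 ± 620.0 CPM (SD, n = 3), and were 36.9% of histone counts in the PBS group on average. H2A and H3 genes were the smallest types, at 742 ± 101 and 772 ± 153 CPM in the PBS group.

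Levels between genes are compared per length of the RefSeq gene, for the 57 members with 1 exon, as CPM per kb averaged over 9 libraries. Hist1h4d was highest with 1848, followed by Hist1h1c (1248), Hist1h1e (1049), Hist1h4f (912) and Hist1h1d (901). The top ranks rest on the RefSeq lengths. GENCODE transcripts are longer for Hist1h4d (1138 against 402 bases), Hist1h1c (1560 against 725), Hist1h1e (1930 against 782) and Hist1h1d (7425 against 776). With GENCODE lengths, Hist2h2bb (381 bases) and Hist1h4f (391 bases) would both lie above Hist1h4d. The order by RefSeq length also differed between libraries. Hist1h1c was above Hist1h4d in PBS replicate 2 (1613 and 1604) and in EnzR EVs + HDL NPs replicates 1 (1405 and 1326) and 2 (1691 and 1549), and over the 6 libraries without the 3 with the most Rn45s the means were 1559 for Hist1h4d, 1496 for Hist1h1c and 699.7 for Hist1h4f, which then ranked 7. The highest H2B gene was Hist2h2bb (799.9), the highest H2A gene Hist1h2ak (353) and the highest H3 gene Hist1h3c (328), while Hist1h3f (176) had the highest CPM of the H3 genes. The lowest were Hist2h2aa1 (0.493), Hist1h1t (0.760), Hist1h4n (1.10) and Hist2h3c2 (1.14). These differences between genes span a range of over 1000-fold, but annotated lengths differ between sources for genes with long forms, such as Hist1h1d (776 bases in RefSeq, 7425 in GENCODE). For Hist2h2be (2.90) the 2 sources give close lengths (2667 and 2620 bases).

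Linker histone H1 binds the DNA that enters and leaves the nucleosome. Hist1h1c had 544, 1169 and 1122 CPM in the PBS mice, 327, 1282 and 763 CPM in the EnzR EV mice and 1019, 1226 and 692 CPM in the EnzR EV + HDL NP mice. PBS replicate 1 and EnzR EVs replicate 1 were lowest in their groups and all groups overlapped. Hist1h1e had 608, 872 and 869 CPM in the PBS mice, 405, 1043 and 924 CPM in the EnzR EV mice and 869, 1023 and 767 CPM in the EnzR EV + HDL NP mice, with the same 2 libraries lowest. Hist1h1d had 635, 707 and 690.1 CPM in the PBS mice, 625, 956 and 747 CPM in the EnzR EV mice and 726, 743 and 463 CPM in the EnzR EV + HDL NP mice, and here EnzR EVs + HDL NPs replicate 3 was the lowest of all. Hist1h1b had 628, 445 and 428 CPM in the PBS mice, 716, 629 and 731 CPM in the EnzR EV mice and 528, 447 and 383 CPM in the EnzR EV + HDL NP mice. For this gene every EnzR EV library was above every PBS and EnzR EV + HDL NP library, though EnzR EVs replicate 2 (629 CPM) and PBS replicate 1 (628 CPM) were nearly equal. Hist1h1a had 315, 179 and 192 CPM in the PBS mice, 180.0, 277 and 244 CPM in the EnzR EV mice and 235, 161 and 127 CPM in the EnzR EV + HDL NP mice, highest in PBS replicate 1. Hist1h1t, the testis form, had only 51 reads in 9 libraries.

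Among the core histone genes of high level, Hist1h4d had 959.8, 645 and 644 CPM in the PBS mice, 1125, 775 and 843 CPM in the EnzR EV mice and 533, 623 and 539 CPM in the EnzR EV + HDL NP mice. Hist1h4f had 518, 267 and 253 CPM in the PBS mice, 607, 361 and 412 CPM in the EnzR EV mice and 256, 256 and 216 CPM in the EnzR EV + HDL NP mice. Both were highest in EnzR EVs replicate 1 and PBS replicate 1. Hist1h4h, also an H4 gene, had 172, 248 and 233 CPM in the PBS mice, 83.4, 309.6 and 244 CPM in the EnzR EV mice and 217, 239 and 186 CPM in the EnzR EV + HDL NP mice, and was lowest in EnzR EVs replicate 1 instead. Hist2h2bb had 417, 402 and 402 CPM in the PBS mice, 245, 604 and 384 CPM in the EnzR EV mice and 459.7, 377 and 258 CPM in the EnzR EV + HDL NP mice. Hist1h2bb had 228, 368 and 388 CPM in the PBS mice, 104, 456 and 199.9 CPM in the EnzR EV mice and 458, 414 and 202 CPM in the EnzR EV + HDL NP mice. Both H2B genes were lowest in EnzR EVs replicate 1 and, within their group, highest in EnzR EVs replicate 2. Hist1h2ak had 161, 216 and 209 CPM in the PBS mice, 134, 248 and 200.4 CPM in the EnzR EV mice and 183, 225 and 127 CPM in the EnzR EV + HDL NP mice, and Hist1h3f had 106, 188 and 186 CPM in the PBS mice, 84.5, 234 and 129 CPM in the EnzR EV mice and 176, 221 and 107 CPM in the EnzR EV + HDL NP mice. For both, all 3 groups overlapped.

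The members of each type covered a wide range. Mean CPM over 9 libraries ran from 0.274 (Hist2h2aa1) to 189 (Hist1h2ak) for H2A genes, from 1.21 (Hist3h2ba) to 394 (Hist2h2bb) for H2B genes, from 0.738 (Hist2h3c2) to 159 (Hist1h3f) for H3 genes and from 0.446 (Hist1h4n) to 743 (Hist1h4d) for H4 genes, on the scale of CPM and not per length. EnzR EVs replicate 1 was the lowest of 9 libraries for 14 of 16 H2B, 8 of 12 H3, 7 of 13 tested H2A, 6 of 12 H4 and 2 of 6 H1 genes, and the highest for 4 H4, 2 H2A, 1 H2B and 1 H1 genes. H4 genes thus held both kinds. Hist1h4k had 59.7, 155 and 153 CPM in the PBS mice, 33.5, 221 and 105 CPM in the EnzR EV mice and 158, 187 and 107 CPM in the EnzR EV + HDL NP mice. It was lowest in PBS replicate 1 and EnzR EVs replicate 1, where Hist1h4f was highest, but both genes were lowest of their group in EnzR EVs + HDL NPs replicate 3. Hist1h4c had 219, 203 and 203 CPM in the PBS mice, 218, 254 and 180.1 CPM in the EnzR EV mice and 179, 194 and 107 CPM in the EnzR EV + HDL NP mice, with less spread. Hist1h4i, of the same stem-loop form as Hist2h4, had 13.9, 15.4 and 13.8 CPM in the PBS mice, 18.1, 19.1 and 14.4 CPM in the EnzR EV mice and 16.4, 14.96 and 9.15 CPM in the EnzR EV + HDL NP mice and did not share the high level of Hist2h4 in EnzR EVs replicate 3.

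Among H3 genes, Hist1h3b had 41.2, 121 and 127 CPM in the PBS mice, 23.05, 166 and 68.2 CPM in the EnzR EV mice and 136, 153 and 76.8 CPM in the EnzR EV + HDL NP mice. It was low in EnzR EVs replicate 1 and PBS replicate 1, and next lowest in EnzR EVs replicate 3. Hist1h3e had 118, 119.9 and 123 CPM in the PBS mice, 94.9, 159 and 129 CPM in the EnzR EV mice and 106, 127 and 73.6 CPM in the EnzR EV + HDL NP mice, and Hist1h3a 48.6, 40.4 and 42.4 CPM in the PBS mice, 33.5, 54.3 and 38.4 CPM in the EnzR EV mice and 41.04, 37.7 and 23.8 CPM in the EnzR EV + HDL NP mice. These genes varied less and were lowest in EnzR EVs + HDL NPs replicate 3. Hist2h3b had 7.57, 22.1 and 26.1 CPM in the PBS mice, 1.10, 31.3 and 10.2 CPM in the EnzR EV mice and 22.1, 27.00 and 14.2 CPM in the EnzR EV + HDL NP mice. Its coding sequence is 99.8% identical to that of Hist2h3c2, which had 1.41, 0.748 and 0.801 CPM in the PBS mice, 0, 0.479 and 1.06 CPM in the EnzR EV mice and 1.07, 0.656 and 0.419 CPM in the EnzR EV + HDL NP mice, and so how their reads are divided is uncertain. Hist2h3b was low in the same libraries as Hist1h3h, while Hist2h3c2 was under 2 CPM in all.

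**Figure D2:**
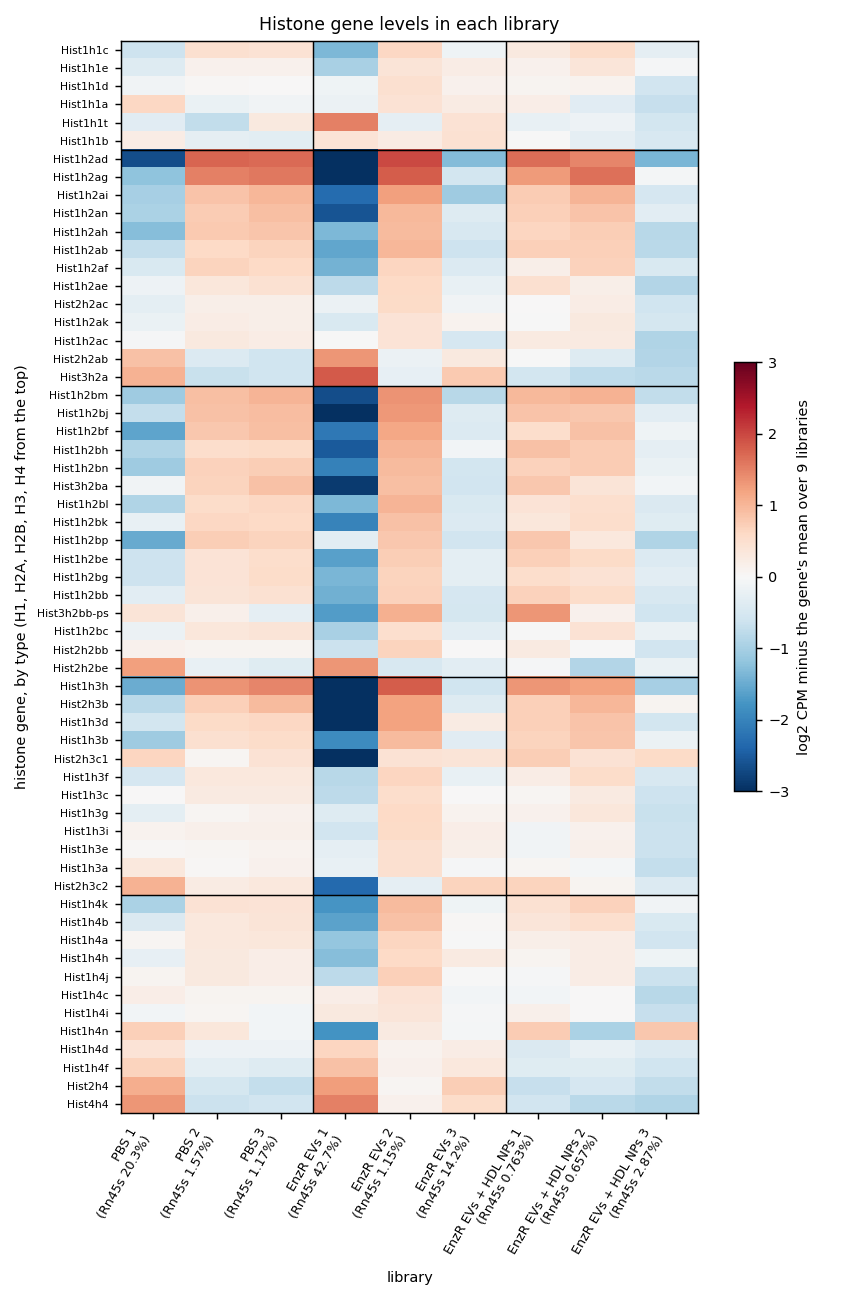
log2 CPM of the 59 tested histone genes in each library, relative to the gene's own mean over 9 libraries (colour, capped at -3 and 3), with genes in rows by type and libraries in columns with their share of counts on Rn45s. EnzR EVs replicate 1 is the lowest of 9 libraries for 37 genes, and EnzR EVs replicate 2 the highest for 42.

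The spread between mice of 1 group was large for these genes. The SD of log2 CPM within groups had a median of 0.77 over the 59 members, from 0.23 for Hist1h1b to 2.54 for Hist1h2ag. Over all 12553 genes tested the median was 0.36, over the S phase genes 0.31 and over the mitosis genes 0.26, and 52 of 59 members lay above the median of all genes. By type, the medians were 0.44 for H1, 0.60 for H4, 0.78 for H3, 0.82 for H2A and 0.96 for H2B genes. In the plot of members by library, columns differ more than groups. EnzR EVs replicate 1 was the lowest of all 9 libraries for 37 members and EnzR EVs + HDL NPs replicate 3 for 18, while EnzR EVs replicate 2 was the highest for 42.

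The 3 members that varied most were the H2A genes Hist1h2ag and Hist1h2ad and the H3 gene Hist1h3h, all of the large cluster, and the H2B gene Hist1h2bm is added as an example at a higher level. Hist1h2ad had 0.880, 21.6 and 21 CPM in the PBS mice, 0.549, 25.4 and 2.48 CPM in the EnzR EV mice and 20.7, 17.9 and 2.38 CPM in the EnzR EV + HDL NP mice. Hist1h2ag had 4.05, 27.8 and 29.2 CPM in the PBS mice, 0, 34.01 and 6.50 CPM in the EnzR EV mice and 23.6, 30.3 and 9.22 CPM in the EnzR EV + HDL NP mice, and the 0 of EnzR EVs replicate 1 allows up to 1.65 CPM. Hist1h3h had 4.05, 29.6 and 32.3 CPM in the PBS mice, 0.549, 41.03 and 7.68 CPM in the EnzR EV mice and 29.3, 27.1 and 5.80 CPM in the EnzR EV + HDL NP mice. Hist1h2bm had 23.6, 91.6 and 100.2 CPM in the PBS mice, 7.68, 126 and 27.4 CPM in the EnzR EV mice and 96.3, 102 and 29.7 CPM in the EnzR EV + HDL NP mice. All 4 were low in PBS replicate 1, EnzR EVs replicates 1 and 3 and EnzR EVs + HDL NPs replicate 3, and high in the other 5 libraries, so that low and high libraries occurred in every group.

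Another set of members had nearly the opposite order. Hist4h4 had 229, 58.7 and 61.3 CPM in the PBS mice, 262, 100.0 and 135 CPM in the EnzR EV mice and 62.03, 52.7 and 48.8 CPM in the EnzR EV + HDL NP mice. Hist3h2a, an H2A gene of the small cluster on chromosome 11, had 187, 57.3 and 60.1 CPM in the PBS mice, 330.3, 77.7 and 157 CPM in the EnzR EV mice and 62.3, 53.5 and 51.8 CPM in the EnzR EV + HDL NP mice. Hist2h4 had 288, 93.9 and 81.98 CPM in the PBS mice, 323, 141 and 223 CPM in the EnzR EV mice and 83.3, 94.95 and 79.9 CPM in the EnzR EV + HDL NP mice. These 3 were highest in EnzR EVs replicate 1 and PBS replicate 1, but not raised in EnzR EVs + HDL NPs replicate 3, the other library in which most members were low. Hist2h2be, an H2B gene, had 15.8, 5.75 and 5.15 CPM in the PBS mice, 17.01, 4.74 and 5.32 CPM in the EnzR EV mice and 6.53, 3.58 and 5.80 CPM in the EnzR EV + HDL NP mice, and Hist2h2ab 23.1, 9.26 and 8.12 CPM in the PBS mice, 31.3, 10.9 and 15.3 CPM in the EnzR EV mice and 12.3, 9.42 and 6.64 CPM in the EnzR EV + HDL NP mice. H2afx, which encodes the H2A variant of DNA damage signalling and is no member, had 419.8, 170.0 and 154 CPM in the PBS mice, 590.4, 193 and 369 CPM in the EnzR EV mice and 153, 170.4 and 175 CPM in the EnzR EV + HDL NP mice. It shared with Hist4h4 the high levels in PBS replicate 1 and EnzR EVs replicates 1 and 3, where Hist1h2ad was low, but not the order within the EnzR EV + HDL NP mice or of PBS replicates 2 and 3.

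**Figure D3:**
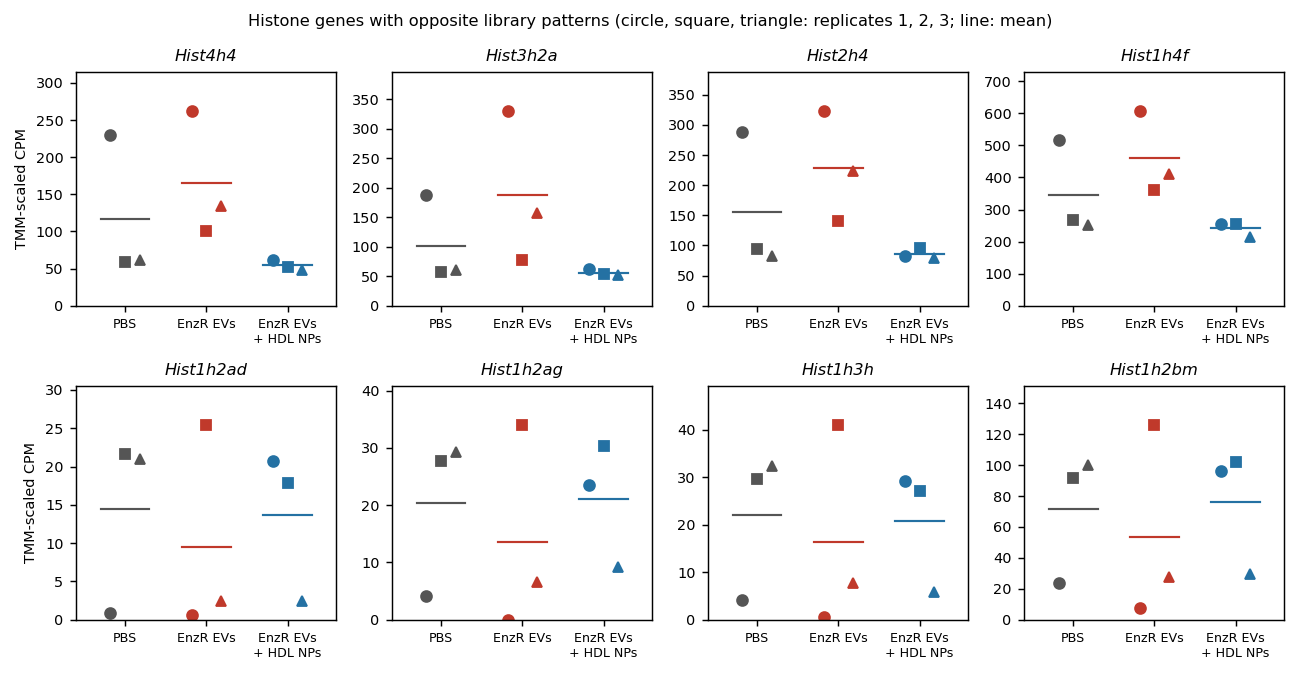
TMM-scaled CPM (vertical axes from 0) of 8 histone genes in 9 libraries, with a line at the mean of 3 mice. In the upper row PBS replicate 1 and EnzR EVs replicate 1 are the highest libraries (Hist4h4, 229 and 262 CPM), and in the lower row they are the lowest (Hist1h2ad, 0.880 and 0.549 CPM).

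To describe this order across members, the library with the most Rn45s of each group was set against the one with the least, for the 56 tested members with a mean over 1 CPM. The median difference in log2 CPM was -0.58 for PBS replicate 1 against 3, -1.85 for EnzR EVs replicate 1 against 2 and -0.86 for EnzR EVs + HDL NPs replicate 3 against 2. For the 11570 other genes it was -0.03, -0.11 and -0.00353. Below 0 were 41, 48 and 54 of the 56 members, and 41 were below 0 in all 3 groups. The differences had like orders across members: Spearman's rho was 0.81 between PBS and EnzR EVs, 0.83 between PBS and EnzR EVs + HDL NPs and 0.64 between the last 2 groups, against 0.58, 0.31 and 0.31 across the other genes. These are descriptions across genes, which are not independent replicates, and each rests on 1 pair of mice a group.

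**Figure D4:**
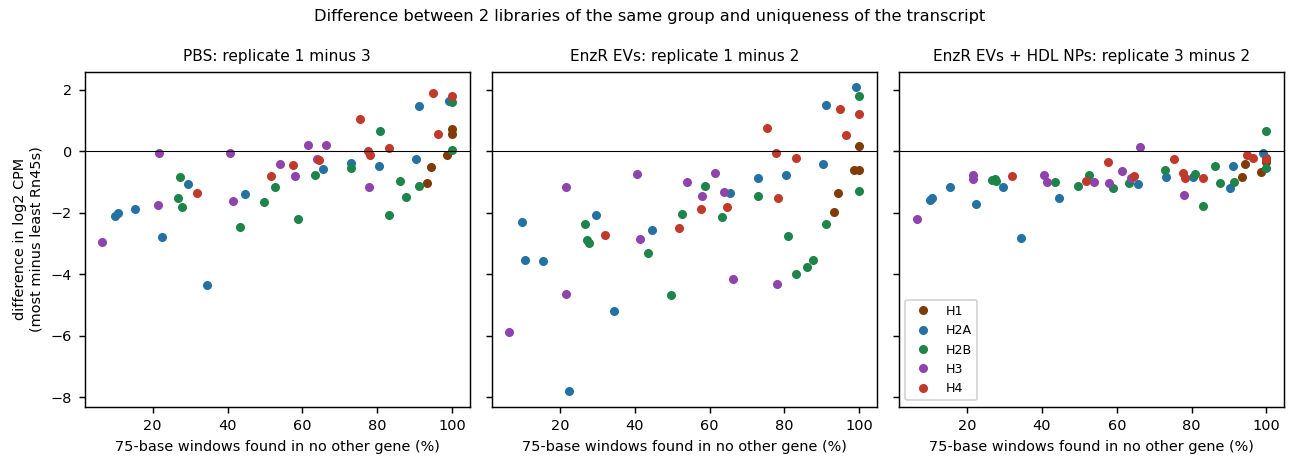
Difference in log2 CPM between the library with the most and the one with the least Rn45s of each group (vertical axis) against the share of a member's 75-base windows found at no other place (horizontal axis, %), 1 point for each of 56 histone genes. Members under 40% lie below 0 in all 3 groups, with medians of -1.81, -2.99 and -1.16.

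The difference moved with how unique the transcript is. Its Spearman correlation across the 56 members with the share of unique windows was 0.69 in the PBS, 0.61 in the EnzR EV and 0.61 in the EnzR EV + HDL NP group. All 13 members with under 40% unique windows were lower in the library with more Rn45s in every group. Of the 20 members at 80% or over, 9, 13 and 19 were lower, with medians of 0.08, -0.62 and -0.52. With the length of the annotated transcript the correlations were 0.39, 0.37 and 0.31, and with its GC content -0.48, -0.43 and -0.41. The part of these features, or of RNA quality, in the differences was not tested. Hist1h2bm, with 83.1% unique windows, was low in the same libraries (-2.08, -4.01 and -1.78), though its coding sequence is 97.9% identical to that of Hist1h2bl.

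The first comparison asks what EnzR EVs did to these genes. No histone gene passed the threshold (0 of 59 members at an edgeR adjusted p under 0.05, and 0% of all genes tested), nor did any by DESeq2 or limma. The highest member was Hist3h2a, with 188 ± 129 CPM with EnzR EVs and 102 ± 74.3 CPM with PBS (SD, n = 3; log2 fold change 0.88 ± 0.54 (SE); edgeR adjusted p = 0.928). Next were Hist1h1t (log2 fold change 0.65 ± 0.68 (SE)), which rests on few reads, and Hist2h4 (log2 fold change 0.56 ± 0.45 (SE)). The lowest were Hist2h3c2 (log2 fold change -0.54 ± 0.66 (SE)), Hist1h2af (log2 fold change -0.45 ± 0.47 (SE)) and Hist1h2ad (log2 fold change -0.44 ± 1.08 (SE)), and each of these 6 values is under 2 times its SE. Each also rested on single libraries. With 1 library left out in turn, Hist3h2a ranged from 0.22 (without EnzR EVs replicate 1) to 1.65 (without PBS replicate 1), Hist1h1t from 0.28 (without EnzR EVs replicate 1) to 1.30 (without PBS replicate 3) and Hist2h4 from 0.25 (without EnzR EVs replicate 1) to 1.36 (without PBS replicate 1). Hist2h3c2 ranged from -1.21 (without EnzR EVs replicate 3) to -0.21 (without EnzR EVs replicate 2), Hist1h2af from -1.09 (without EnzR EVs replicate 2) to -0.13 (without EnzR EVs replicate 1) and Hist1h2ad from -2.89 (without EnzR EVs replicate 2) to 0.025 (without EnzR EVs replicate 3). At an unadjusted p under 0.05 Hist1h1b alone was higher (log2 fold change 0.47 ± 0.20 (SE); edgeR adjusted p = 0.928; 3 members with the replicate number as a block) and no member was lower, where 1.55% of all genes were higher and 1.92% lower (with the block 2.87% and 3.08%). Hist1h1b just missed that p without the filter on low counts (log2 fold change 0.43; 0 members, beside 1.76% of all genes higher) and missed it with scaling by library size only (log2 fold change 0.29; 0 members, beside 0.43%). Hist1h1b was also the only one of 59 members whose groups did not overlap, against 7.96% of all genes. The median log2 fold change of the members was -0.13 beside -0.03 for all genes, and by type 0.12 (H1), -0.27 (H2A), -0.27 (H2B), -0.11 (H3) and 0.03 (H4). The calls rested on single mice: at that p no member was higher without any 1 of PBS replicates 2 and 3 and EnzR EVs replicates 1 and 3 (beside 0.51%, 0.535%, 1.39% and 1.31% of all genes). The log2 fold change of Hist1h1b was 0.41, 0.38, 0.45 and 0.42 in these fits, beside 0.47 with all libraries. At that p 7 members were higher without PBS replicate 1 (beside 4.88% of all genes), and 2 were higher and 12 lower without EnzR EVs replicate 2 (beside 8.62% and 8.02% of all genes). The median was 0.13 without EnzR EVs replicate 1, -0.65 without EnzR EVs replicate 2, and 0.33 without the 3 libraries with the most Rn45s, which leave 1 EnzR EV library, assumed to vary like the others. In that setting 5 members were higher and none lower at an unadjusted p under 0.05, beside 2.55% and 3.04% of all genes.

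**Figure D5:**
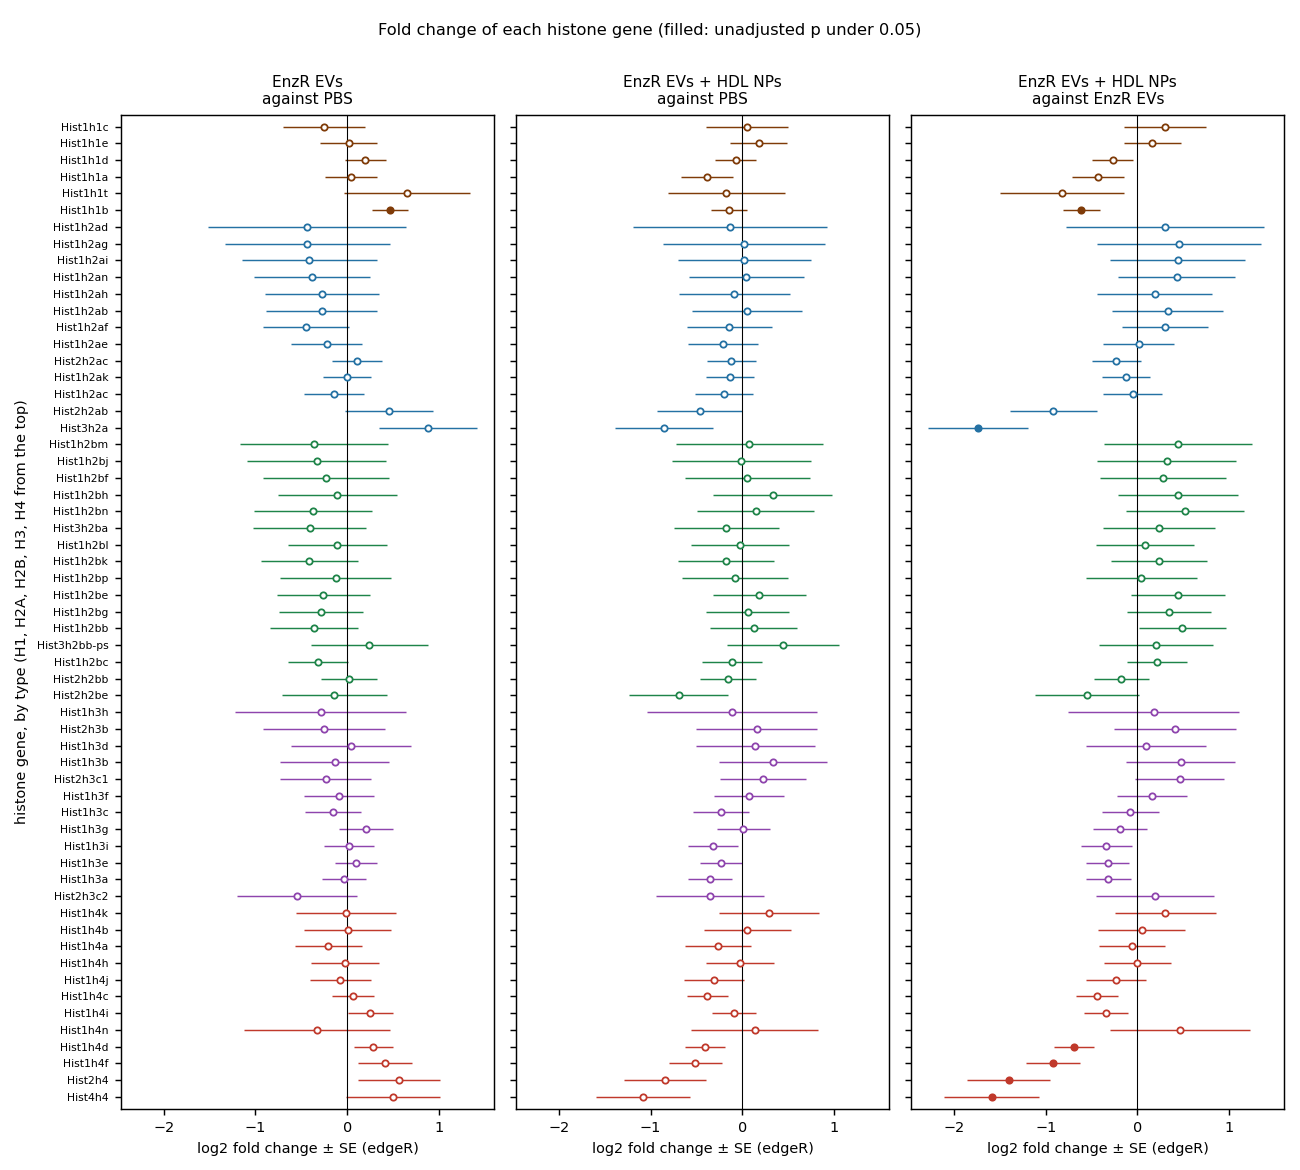
log2 fold change ± SE (edgeR, 9 libraries, n = 3 a group) of the 59 tested histone genes in the 3 comparisons, with genes in rows by type and filled points for an unadjusted p under 0.05. No point passed the adjusted threshold. The lowest values are those of Hist3h2a (-1.74), Hist4h4 (-1.59) and Hist2h4 (-1.41) in EnzR EVs + HDL NPs against EnzR EVs.

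With EnzR EVs + HDL NPs against PBS, again no member passed (0 of 59, and 0% of all genes), and none had an unadjusted p under 0.05 by edgeR, where 1.02% of all genes were higher and 1.12% lower. DESeq2 gave 1 member, Hist4h4, an unadjusted p under 0.05, as lower, beside 0.75% of all genes lower and 0.74% higher, and limma gave none, beside 1.27% and 1.31%. The lowest were Hist4h4 (54.5 ± 6.82 against 116 ± 97.8 CPM, SD, n = 3; log2 fold change -1.09 ± 0.51 (SE); edgeR adjusted p = 0.9997), Hist3h2a (log2 fold change -0.86 ± 0.53 (SE)) and Hist2h4 (log2 fold change -0.84 ± 0.45 (SE)). In all 3, PBS replicate 1 lay far above PBS replicates 2 and 3, which were close to the EnzR EV + HDL NP mice. Without PBS replicate 1 the log2 fold changes were -0.14 for Hist4h4, -0.073 for Hist3h2a and -0.032 for Hist2h4. The highest were Hist3h2bb-ps (log2 fold change 0.45 ± 0.61 (SE)), Hist1h3b (log2 fold change 0.34 ± 0.59 (SE)) and Hist1h2bh (log2 fold change 0.33 ± 0.65 (SE)). Groups did not overlap for 2 of 59 members, the H4 genes Hist1h4d and Hist1h4c, both lower with EnzR EVs + HDL NPs, against 13.2% of all genes. The median log2 fold change was -0.09 beside -0.01 for all genes, and was highest for H2B (0.02) and lowest for H4 genes (-0.29). Leaving out PBS replicate 2 or 3 gave 2 and 3 members lower at an unadjusted p under 0.05 (beside 1.28% and 1.17% of all genes), and medians of 0.063 and 0.035. The median was 0.12 without EnzR EVs + HDL NPs replicate 3, -0.20 without each of replicates 1 and 2 of that group, -0.23 without PBS replicate 1 and -0.22 without the 3 libraries with the most Rn45s, where no member had such a p (beside 2.15% of all genes higher and 2.57% lower).

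What HDL NPs did in mice given EnzR EVs is asked by the comparison of EnzR EVs + HDL NPs with EnzR EVs. It had the largest differences of the 3, but again no member past the threshold (0 of 59, and 0% of all genes). At an unadjusted p under 0.05, 6 of 59 members (10.2%) were lower and 0 higher, beside 6.97% of all genes lower and 3.58% higher. The same 6 had such a p by DESeq2 (beside 7.13% of all genes lower) and by limma (beside 4.25%). With scaling by library size only, 4 of them had, without Hist1h1b and Hist1h4d, beside 2.33% of all genes. Of these 6, 4 are H4 genes, and all lie in 1 exon, as do 57 of the 60 members. The 6 are Hist4h4 (chr6:136801553-136804415), Hist2h4 (chr3:96261682-96263311), Hist1h4f (chr13:23551258-23551648), Hist1h4d (chr13:23581598-23582735), Hist3h2a (chr11:58954685-58956830) and Hist1h1b (chr13:21779883-21780625, GRCm38). Hist4h4 had 54.5 ± 6.82 CPM with HDL NPs and 166 ± 85.4 CPM without (SD, n = 3; log2 fold change -1.59 ± 0.52 (SE); edgeR adjusted p = 0.461). Hist3h2a had 55.8 ± 5.63 and 188 ± 129 CPM (log2 fold change -1.74 ± 0.55 (SE); edgeR adjusted p = 0.461). Hist2h4 had 86.04 ± 7.90 and 229 ± 91.3 CPM (log2 fold change -1.41 ± 0.45 (SE); edgeR adjusted p = 0.461). The others were Hist1h4f (log2 fold change -0.92 ± 0.29 (SE)), Hist1h4d (log2 fold change -0.69 ± 0.22 (SE)) and Hist1h1b (log2 fold change -0.61 ± 0.20 (SE)). The groups of all 6 did not overlap. With Hist2h3c1, which was higher, this made 7 of 59 members, against 17.6% of all genes. By the two-sided exact permutation test these 6 had p = 0.1, the smallest that 3 against 3 can give. Leaving out any 1 library but EnzR EVs replicate 2 gave 6 to 8 members lower and none higher at an unadjusted p under 0.05. These were 8 without EnzR EVs replicate 1 (beside 2.67% of all genes lower), 6 without EnzR EVs replicate 3 (4.51%), and 7, 7 and 6 without EnzR EVs + HDL NPs replicates 1, 2 and 3 (3.84%, 3.43% and 4.13%), while without EnzR EVs replicate 2, 7 were lower and 15 higher, beside 15.1% and 14.2% of all genes. The log2 fold change of Hist3h2a with 1 library left out ranged from -2.14 to -1.07, that of Hist4h4 from -1.88 to -1.11 and that of Hist2h4 from -1.69 to -1.09, each nearest to 0 without EnzR EVs replicate 1 and farthest without EnzR EVs replicate 2.

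EnzR EVs replicates 1 and 3, in which these 6 genes were high, are also the EnzR EV libraries with much Rn45s. Without the 3 libraries with the most Rn45s the log2 fold changes were -0.88 for Hist4h4, -0.48 for Hist3h2a, -0.72 for Hist2h4, -0.58 for Hist1h4f, -0.46 for Hist1h4d and -0.48 for Hist1h1b, all below 0, with edgeR adjusted p of 0.603 or more. This leaves EnzR EVs replicate 2 as the only library of its group, in which most members were highest. Then 22 members in place of 6 were lower at an unadjusted p under 0.05, beside 2.06% of all genes, a count that rests on this 1 library. The summed level of 6 early granulocyte markers (Mpo, Elane, Prtn3, Ctsg, Ms4a3 and Cebpe, from dividing precursors) was 2218 to 2293 CPM with EnzR EVs, 1073 to 1921 CPM with EnzR EVs + HDL NPs and 1712 to 2074 CPM with PBS. The EnzR EV mice thus did not overlap the other mice. Of all genes tested, 7.96% did not overlap between EnzR EVs and PBS, and 17.6% between EnzR EVs + HDL NPs and EnzR EVs. Late granulocyte markers summed to 26564 to 50818, 38414 to 55905 and 38959 to 50937 CPM in the same order. Monocyte markers summed to 1268 to 2205, 1653 to 2389 and 1970 to 2205 CPM, and the groups overlapped for both lists. The part of cell makeup in the histone values was not tested.

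The 3 highest members of this comparison were Hist1h2bn (log2 fold change 0.52 ± 0.64 (SE)), Hist1h2bb (log2 fold change 0.49 ± 0.48 (SE)) and Hist1h3b (log2 fold change 0.47 ± 0.59 (SE)). With 1 library left out they ranged from 0.076 to 1.53, from 0.12 to 1.2 and from 0.048 to 1.34, each lowest without EnzR EVs replicate 1 and highest without EnzR EVs replicate 2. None differed beyond the spread between mice (edgeR adjusted p = 0.637 for Hist1h2bb). The median log2 fold change over members was 0.10 beside 0.03 for all genes, with 0.26 for H2B, 0.19 for H2A, 0.13 for H3, -0.29 for H4 and -0.35 for H1 genes. The comparisons share groups and so their values are not independent. The median of all members was 0.65 without EnzR EVs replicate 2 and 0.31 without EnzR EVs + HDL NPs replicate 3. It was below 0 without any other library of these groups, at -0.17 and -0.078 without EnzR EVs replicates 1 and 3 and -0.12 and -0.081 without EnzR EVs + HDL NPs replicates 1 and 2, and -0.57 without the 3 libraries with the most Rn45s, so its sign is not settled. The medians were not tested against each other.

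The machinery of histone expression was measured alongside, from hand-written lists of which 10 of 10 transcription regulators, 13 of 13 factors of 3′ end processing, 6 of 6 decay factors and 15 of 16 histone chaperones were tested. None of them passed the adjusted threshold in any comparison by edgeR. Slbp, the stem-loop binding protein, had 113, 72.6 and 78.9 CPM in the PBS mice, 131, 88.3 and 105 CPM in the EnzR EV mice and 78.8, 79.8 and 79.9 CPM in the EnzR EV + HDL NP mice. It was highest in EnzR EVs replicate 1, and its log2 fold change was 0.29 ± 0.21 (SE) in EnzR EVs against PBS. With HDL NPs added to EnzR EVs it was -0.44 ± 0.21 against EnzR EVs alone (edgeR adjusted p = 0.461). Npat, the S phase coactivator of histone genes, had 25.9, 32.2 and 32.95 CPM in the PBS mice, 26.3, 40.8 and 28.8 CPM in the EnzR EV mice and 39.5, 31.1 and 34.1 CPM in the EnzR EV + HDL NP mice, and its groups overlapped. Casp8ap2, a histone locus body protein, had log2 fold changes of 0.34, 0.10 and -0.24 in the 3 comparisons as ordered above. Lsm10 (-0.31, 0.15 and 0.46), Lsm11 (-0.02, -0.11 and -0.09) and Zfp473 (0.32, 0.10 and -0.22), which act in 3′ end cleavage, and Eri1 (0.05, 0.14 and 0.08), an exonuclease of histone mRNA decay, had changes within 2 SE of 0. In this last comparison 1 of 10 regulators, 1 of 13 processing factors and 2 of 15 chaperones were lower at an unadjusted p under 0.05 and none higher, while 2 of 6 decay factors were higher and none lower, beside 6.97% of all genes lower and 3.58% higher. The chaperone Rbbp4, named after its values were seen, had 804, 206 and 204 CPM in the PBS mice, 4595, 230.3 and 588 CPM in the EnzR EV mice and 200.2, 184 and 196 CPM in the EnzR EV + HDL NP mice, again highest in EnzR EVs replicate 1 and PBS replicate 1.

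Genes of DNA replication and mitosis are a readout of dividing cells that does not rest on histone mRNA. The 35 S phase genes summed to 2271, 1751 and 1819 CPM with PBS, 2364, 2273 and 2133 CPM with EnzR EVs and 2127, 1726 and 1742 CPM with EnzR EVs + HDL NPs. EnzR EVs replicate 1 was the highest, although its histone genes summed to the second lowest level on the same scale (6694 CPM, after 5825 CPM in EnzR EVs + HDL NPs replicate 3). The EnzR EV mice lay above the EnzR EV + HDL NP mice without overlap, if by little, while 17.6% of all genes tested did not overlap between these groups. The median log2 fold change of the S phase genes was 0.11, -0.05 and -0.06 in the 3 comparisons, with 0 of 35 past the adjusted threshold in any of them. With HDL NPs against EnzR EVs alone, 8 of 35 were lower and 0 higher at an unadjusted p under 0.05, beside 6.97% and 3.58% of all genes. Among these were Rrm1 (-0.78 ± 0.29, SE) and Rrm2 (-0.56 ± 0.21), subunits of ribonucleotide reductase, named after their values were seen. EnzR EVs replicates 1 and 3 have much Rn45s, and these S phase values are not given without them. The 19 mitosis genes summed to 3518, 3175 and 3203, 3141, 4364 and 3412 and 4392, 3366 and 3602 CPM, with medians of 0.20, 0.08 and -0.08. None passed the adjusted threshold. At an unadjusted p under 0.05 by edgeR, 3 were higher and 0 lower in EnzR EVs against PBS, beside 1.55% and 1.92% of all genes. With HDL NPs against EnzR EVs alone 4 were lower and 0 higher, beside 6.97% and 3.58%. These mitosis values, too, are not given without EnzR EVs replicates 1 and 3. Pcna, the clamp of replicating polymerases, had 59.3, 61.5 and 62.4 CPM in the PBS mice, 29.6, 73.8 and 52.97 CPM in the EnzR EV mice and 65.6, 57.8 and 54.1 CPM in the EnzR EV + HDL NP mice, and Mki67 had 763, 1054 and 1051 CPM in the PBS mice, 509.8, 1354 and 726 CPM in the EnzR EV mice and 1489.8, 1093 and 1189 CPM in the EnzR EV + HDL NP mice. Both were lowest in EnzR EVs replicate 1 and highest or second highest in EnzR EVs replicate 2. Asf1b, a chaperone of new H3 and H4, had log2 fold changes of 0.16, 0.15 and -0.01. H2afz, H3f3a and H3f3b are replication-independent histone genes, whose mRNAs have poly(A) tails. H2afz had 11.1, 44.7 and 40.6 CPM in the PBS mice, 6.58, 43.6 and 17.3 CPM in the EnzR EV mice and 38.6, 51.4 and 26.8 CPM in the EnzR EV + HDL NP mice. H3f3a had 32.9, 101 and 81.8 CPM in the PBS mice, 9.88, 98.8 and 42.8 CPM in the EnzR EV mice and 58.03, 103 and 76.98 CPM in the EnzR EV + HDL NP mice. H3f3b had 371, 538 and 543 CPM in the PBS mice, 222, 483 and 386 CPM in the EnzR EV mice and 514, 569 and 472 CPM in the EnzR EV + HDL NP mice. H2afz, H3f3a and H3f3b were lowest in EnzR EVs replicate 1 and PBS replicate 1. Of the 11 other histone genes listed, which include H2afx, these 3 were lowest and 6 were highest in 1 of these 2 libraries, so the list had no common order.

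Of the 60 members 54 have a promoter in the RefSeq table (GRCm38.p6, 250 bases before to 50 after the start). Searched on both strands were CCAAT (the box bound by NFY), TATAAA (the TATA box), ATTTGCAT (the octamer bound by POU2F1) and also TTTCGCGC, none of which contains another. CCAAT was in 46 of 54 (85.2%), against 37.4% of all 32851 promoters, and was in all 6 H1, 14 H2A, 13 H2B and 10 H3 but only 3 of 11 H4 promoters. TATAAA was in 32 (59.3%, against 13.6%). ATTTGCAT was in 11 (20.4%, against 1.74%) and TTTCGCGC in 9 (16.7%, against 0.323%), all of them H2A or H2B promoters. There are 11 pairs of members that start in opposite directions within 1000 bases of each other, 10 of them of an H2A and an H2B gene. The windows of such a pair can be largely the same stretch read on both strands. Per length, the means over 9 libraries of a pair were 353 CPM per kb for Hist1h2ak and 402 for Hist1h2bn, but within libraries they differed: Hist1h2ak was higher in EnzR EVs replicate 1 (251 and 81.5) and Hist1h2bn in PBS replicate 2 (404 and 539.7). Means were farther apart for Hist1h2ag (38.8) and Hist1h2bj (151) and for Hist2h2ac (226) and Hist2h2be (2.90).

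The promoters of 3 members with different library patterns are given with these motifs in capitals, for Hist1h2ad (chr13:23574131-23574430, plus strand; low in the libraries with the most Rn45s, and shared with Hist1h2bf on the other strand), Hist1h1b (chr13:21780576-21780875, minus strand; the member with the least spread) and Hist4h4 (chr6:136804382-136804681, minus strand; high in PBS replicate 1 and EnzR EVs replicate 1):
Hist1h2ad: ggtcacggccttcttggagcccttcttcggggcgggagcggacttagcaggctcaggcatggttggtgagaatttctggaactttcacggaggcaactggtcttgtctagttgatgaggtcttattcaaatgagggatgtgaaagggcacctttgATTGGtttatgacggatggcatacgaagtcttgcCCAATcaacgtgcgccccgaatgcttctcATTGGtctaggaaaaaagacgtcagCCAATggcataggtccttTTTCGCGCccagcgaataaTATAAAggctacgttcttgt
Hist1h1b: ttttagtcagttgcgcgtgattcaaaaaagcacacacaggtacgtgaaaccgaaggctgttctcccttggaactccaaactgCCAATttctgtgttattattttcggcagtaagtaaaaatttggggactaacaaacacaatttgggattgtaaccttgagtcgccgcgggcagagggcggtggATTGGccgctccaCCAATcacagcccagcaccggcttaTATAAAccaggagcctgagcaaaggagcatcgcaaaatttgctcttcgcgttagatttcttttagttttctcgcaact
Hist4h4: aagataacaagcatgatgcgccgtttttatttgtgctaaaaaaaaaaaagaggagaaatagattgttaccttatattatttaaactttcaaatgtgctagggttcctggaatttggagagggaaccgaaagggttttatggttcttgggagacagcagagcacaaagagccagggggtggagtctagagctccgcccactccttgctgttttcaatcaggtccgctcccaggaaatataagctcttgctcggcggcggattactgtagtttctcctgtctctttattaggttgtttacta

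Hist1h2ad holds the CCAAT box, the TATA box and TTTCGCGC, Hist1h1b holds the first 2 of these, and the window of Hist4h4 holds none of the 4 motifs. A match is a description and no site of binding.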

How the data were processed

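CD11b+ bone marrow cells of 9 mice were profiled by total RNA-seq with a stranded kit, 1 library each (single-end reads of 75 bp, 200 ng of RNA, ribosomal RNA depleted). The deposited files hold raw counts of reads per gene. Before deposit by the authors, adapters were trimmed (cutadapt 1.13), poor and ribosomal reads filtered, and reads aligned to mm10 with STAR and counted with htseq-count (HTSeq 0.6.1p1, per the submitters' processing notes) on the UCSC annotation. The strand setting and the treatment of reads with several places are not given in the sources used here. The labels name Trizol and the methods a column kit for the RNA. Groups and replicate numbers came from the sample titles.

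The members and gene lists were chosen with earlier results of these data known. Counts were fitted in R 4.3.3 with edgeR 4.0.16 (TMM, default filter on low counts, robust quasi-likelihood F test, all 9 libraries with 1 coefficient per group, Benjamini-Hochberg over 12553 genes, threshold 0.05). For single genes log2 CPM (prior count 2) were permuted between groups (exact, two-sided). DESeq2 1.42.0 and limma 3.58.1 were alternatives, with other normalizations and filters, 6 libraries only, a replicate block, Rn45s left out and each replicate left out. Leaving out the 3 libraries with the most Rn45s was chosen after seeing the data. Named members are the 10 with the highest mean CPM, all H1 genes, the 3 highest and 3 lowest fold changes and any call of each comparison, those next to the 10-read limit and the top member of each core type; others were named after their values were seen. On simulated data for EnzR EVs against PBS with 200 of 12553 genes changed 3-fold, edgeR recovered 65.5% with 8.39% of calls false. DESeq2 recovered 77.5% with 19.7% of calls false, and limma 65.0% with 5.11%. The simulation drew each gene independently and without the differences in Rn45s between libraries, so these rates may not hold for the real data. Same-numbered libraries of the PBS and EnzR EV groups deviated together (r = 0.473, 0.492 and 0.131 across genes). The labels name no shared litter or day, however, and the correlations do not follow the numbers alone. They were r = 0.429 for PBS replicate 3 with EnzR EVs replicate 2 and 0.156 for PBS replicate 2 with EnzR EVs replicate 3. Pairing by number is thus not established. The main fit used no block, and the replicate block is an alternative only. All libraries of a group differed by more than sampling noise (chi-square per degree of freedom of at least 4.48). Transcripts, windows and coordinates came from GENCODE M21 and promoters from RefSeq, matched by symbol or synonym for all 60 members.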

Additional observations from a re-analysis of the deposited data

How the results depend on the processing

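No histone gene passed an adjusted p under 0.05 in any comparison under any of the alternatives, and the 6 members below an unadjusted p of 0.05 in EnzR EVs + HDL NPs against EnzR EVs kept their direction in the main fit and in all 17 alternatives that bear on it. Over all genes, none passed in the main fit. In EnzR EVs against PBS, 14 passed by DESeq2, 1 without the filter on low counts, 1 with the replicate block, 10 without the 3 libraries with the most Rn45s (chosen after seeing the data), and 0 to 2 when a replicate was left out (2 without PBS replicate 1). In EnzR EVs + HDL NPs against PBS, 2 passed by DESeq2. In EnzR EVs + HDL NPs against EnzR EVs, 1 passed by DESeq2, 1 with 6 libraries only and 1 without the 3 libraries.

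Without the 3 libraries with the most Rn45s, the median log2 fold change of the members was -0.57 in EnzR EVs + HDL NPs against EnzR EVs, and the histone share of the EnzR EV group was 1.17%, from 1 library. Some named members changed sign there: Hist1h1t (-0.20), Hist1h2ad (0.26) and Hist1h2af (0.028) in EnzR EVs against PBS, Hist1h2bh (-0.0050) and Hist1h3b (-0.019) in EnzR EVs + HDL NPs against PBS, and Hist1h2bb (-0.35), Hist1h2bn (-0.49) and Hist1h3b (-0.45) in EnzR EVs + HDL NPs against EnzR EVs. Leaving out a replicate, Hist1h2ad ranged from -2.89 to 0.025 in EnzR EVs against PBS (above 0 without EnzR EVs replicate 3). In EnzR EVs + HDL NPs against PBS, Hist1h2bh ranged from -0.0069 to 0.62, Hist1h3b from -0.021 to 0.59 (both below 0 without PBS replicate 1) and Hist3h2bb-ps from -0.28 to 0.79 (below 0 without EnzR EVs + HDL NPs replicate 1). The cause was not tested.

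With the replicate block the medians of the members were -0.20, -0.11 and 0.21, 3 members in place of 1 were higher in EnzR EVs against PBS, 2 in place of 0 lower in EnzR EVs + HDL NPs against PBS and 8 in place of 6 lower in EnzR EVs + HDL NPs against EnzR EVs at an unadjusted p under 0.05. Over all genes 2.87% were higher, 2.2% lower and 9.44% lower in the same order with the block, in place of 1.55%, 1.12% and 6.97%, and the block changed no member's adjusted call. Same-numbered libraries had correlations of 0.0609, 0.293, -0.175 for PBS with EnzR EVs + HDL NPs and -0.0363, 0.209, 0.121 for EnzR EVs with EnzR EVs + HDL NPs. Pairing by number is not established for these groups either, and the values with the block rest on it. Scaling by library size only moved the median of all genes to -0.18, 0.05 and 0.24 in the 3 comparisons. Depth limits the members with few reads most, since EnzR EVs replicate 1 has the fewest counts and 5 members at 0 there.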
